A study of Mus musculus with 6 samples.

Results

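Hsd11b1 and Hsd11b2 encode the enzymes that switch glucocorticoids on and off inside cells, the 11-beta-hydroxysteroid dehydrogenases type 1 and type 2. They were followed through every probe set annotated with either symbol alone. That gave 3 of the 12422 probe sets on the array, for 2 of the 8251 genes named there: 97867_at for Hsd11b1, and 100493_at and 161517_at for Hsd11b2. The RNA came from mIMCD3 cells, an immortalised mouse line of the inner medullary collecting duct. Cells received aldosterone or vehicle for 1 h, and nothing else is named in the labels, which give no hormone dose. The experiment was done 3 times and each replication gave 1 aldosterone and 1 vehicle array, so there were 3 arrays in each group. The labels do not say more about the cultures, so each p-value reflects only how these arrays vary, which may be technical.

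Both enzymes interconvert active corticosteroids (corticosterone in mice, cortisol in humans) and their inert 11-keto forms. The type 1 enzyme sits in the endoplasmic reticulum and works mainly as a reductase that regenerates active hormone, with NADPH supplied there by hexose-6-phosphate dehydrogenase, the product of H6pd. The type 2 enzyme is an NAD-dependent dehydrogenase. In the aldosterone-responsive distal nephron and collecting duct it inactivates glucocorticoids, which would otherwise occupy the mineralocorticoid receptor, and so leaves that receptor to aldosterone.

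All levels are given as linear intensities after each array was multiplied to a common 2% trimmed mean of 2090. The aldosterone array of replication 3 had been deposited with a trimmed mean of 86.5, against 2488 to 2493 for the other 5, and was multiplied by 24.2 where the others were multiplied by 0.838 to 0.840. Deposited values carried 1 decimal, and after scaling that decimal was a step of 2.42 units on the aldosterone array of replication 3, against 0.0838 to 0.0840 on the other 5. Below a scaled intensity of 100, the 2531 probe sets of that array shared 41 distinct values, where the other arrays had 796 to 1009 distinct values for 1668 to 2459 probe sets. The value table has no detection calls. Background was therefore read from 68 probe sets of 51 genes chosen as normally restricted to other tissues, such as liver, retina, pancreas, germ cells, muscle and blood. Umod, among them, is a kidney gene that the proximal tubule and loop markers below also include. Their median was 141, 108 and 95.5 on the aldosterone arrays of replications 1, 2 and 3, and 135, 175 and 91.9 on the vehicle arrays. Of these 51 genes 14 were themselves above the 40th percentile of brightness, so the list gives an approximate level and its median is used.

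Neither enzyme gave a signal that stood clear of this background. All 3 probe sets lay below the 40th percentile of mean log2 intensity, which was 8.87 on the scale log2(intensity + 53.0). Their means were 7.99 for Hsd11b1, 7.75 for 100493_at and 7.24 for 161517_at. On single arrays Hsd11b1 was brighter than 51.5% to 76.5% of the background probe sets and 100493_at brighter than 50.0% to 66.2%. The probe set 161517_at was brighter than 16.2% to 22.1% of them on aldosterone arrays and than 52.9% to 66.2% on vehicle arrays. Probe sets differ in affinity, so these ranks place a signal against background and do not compare the abundance of the genes.

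**Figure D1:**
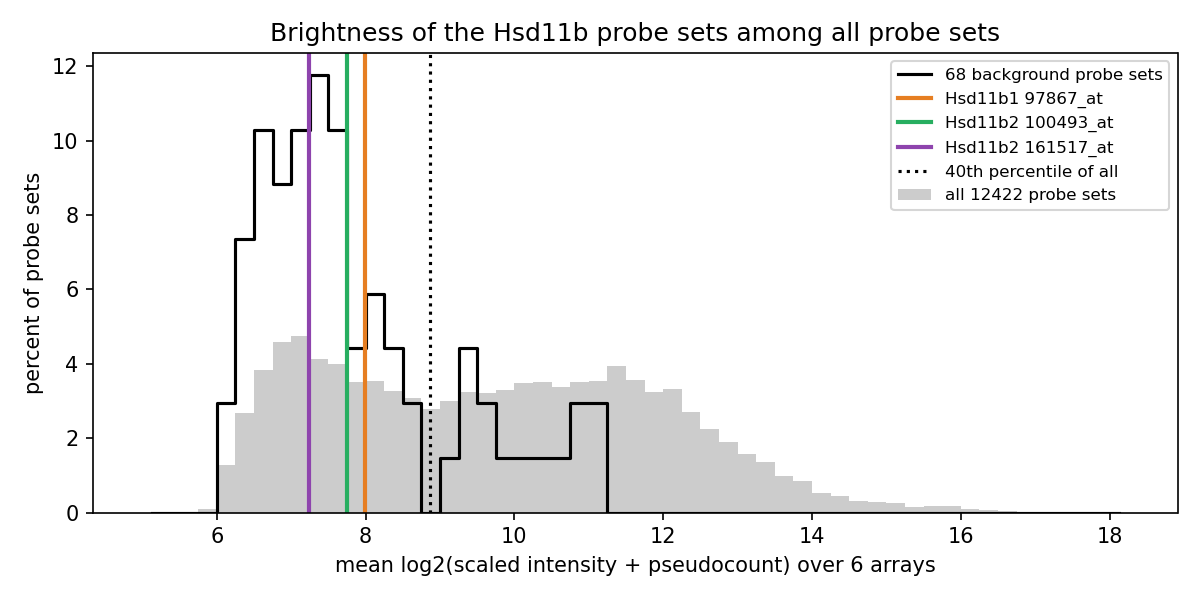
Distribution of the mean log2(scaled intensity + pseudocount) over 6 arrays, as percent of probe sets, for all 12422 probe sets (grey bars) and for the 68 background probe sets (black outline), with the 3 Hsd11b probe sets as coloured lines. All 3 lines, at 7.99, 7.75 and 7.24, fall left of the 40th percentile at 8.87 (dotted) and within the main body of the background probe sets.

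For Hsd11b2, both probe sets read lower after aldosterone in every replication, 161517_at by a large ratio throughout and 100493_at mainly in replication 2, and neither difference passed the test over all probe sets. The probe set 161517_at had 52.3, 35.6 and 33.8 on the aldosterone arrays of replications 1, 2 and 3, against 176, 277 and 139 on the vehicle arrays. The groups did not overlap, and the highest aldosterone value lay well under the lowest vehicle value. The ratio of aldosterone to vehicle was 0.297, 0.129 and 0.244 in the 3 replications. The means were 40.6 ± 10.2 with aldosterone and 197 ± 71.6 with vehicle (SD, n = 3 each). The aldosterone values were 0.329 to 0.370 of the background median of their own arrays, whereas the vehicle values were 1.30 to 1.58 times it. Both groups therefore lay within the range of the background probe sets, the aldosterone arrays at its dim end.

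The log2 difference of 161517_at, aldosterone minus vehicle, was -1.39 (standard error, SE, 0.352), with a 95% interval of -2.17 to -0.61 by limma. All log2 differences and log2 ratios in this report are on the scale log2(intensity + 53.0). The added 53.0 exceeds each aldosterone value of 161517_at. Its log2 differences are therefore smaller in size than the linear ratios above imply. Its unadjusted p of 0.00255 ranked number 15 among the 12422 probe sets, but the adjusted p was 0.9996. With the replication as a block the unadjusted p was 0.00375 and the adjusted p 0.998. An exact permutation test over the 6 arrays, two-sided, gave p = 0.1, the smallest that 3 against 3 arrays allow, and 0.15 after adjustment over the 3 probe sets. A log2 difference as low as this or lower was found in 0.121% of all probe sets and in 0.302% of those below the 40th percentile.

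The size of the difference depended on how signals below background were treated. With values below each array's background median raised to that median, the log2 difference of 161517_at was -0.74 (limma, unadjusted p = 0.0743). With no pseudocount and a floor at the 5th percentile it was -2.25. The rounding on the aldosterone array of replication 3 moved it less. The deposited value there was 1.4, shared by 73 probe sets, and its rounding step spanned 32.6 to 35.1 after scaling. The log2 difference was -1.39 at the lower end of that step and -1.38 at the upper end. Without that array it was -1.32.

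The other Hsd11b2 probe set, 100493_at, had 152, 112 and 135 on the aldosterone arrays and 166, 286 and 161 on the vehicle arrays. The groups did not overlap here either, but the gap was narrow, from 152 to 161, and replication 2 held most of the difference. The ratio of aldosterone to vehicle was 0.915, 0.391 and 0.839 in replications 1, 2 and 3. The means were 133 ± 20.3 with aldosterone and 204 ± 70.6 with vehicle (SD, n = 3 each). The log2 difference was -0.44 (SE 0.372), with a 95% interval of -1.26 to 0.38 (limma, unadjusted p = 0.261, adjusted p = 0.9996). Without both arrays of replication 2 it was -0.14. The vehicle array of replication 2 also had the brightest background median, 175. As a multiple of each array's background median, 100493_at read 1.08, 1.03 and 1.42 with aldosterone and 1.23, 1.63 and 1.76 with vehicle, and on this measure the groups overlapped, although aldosterone was the lower of each pair in 3 of 3 replications. The part of the array's background in the difference was not tested further.

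**Figure D2:**
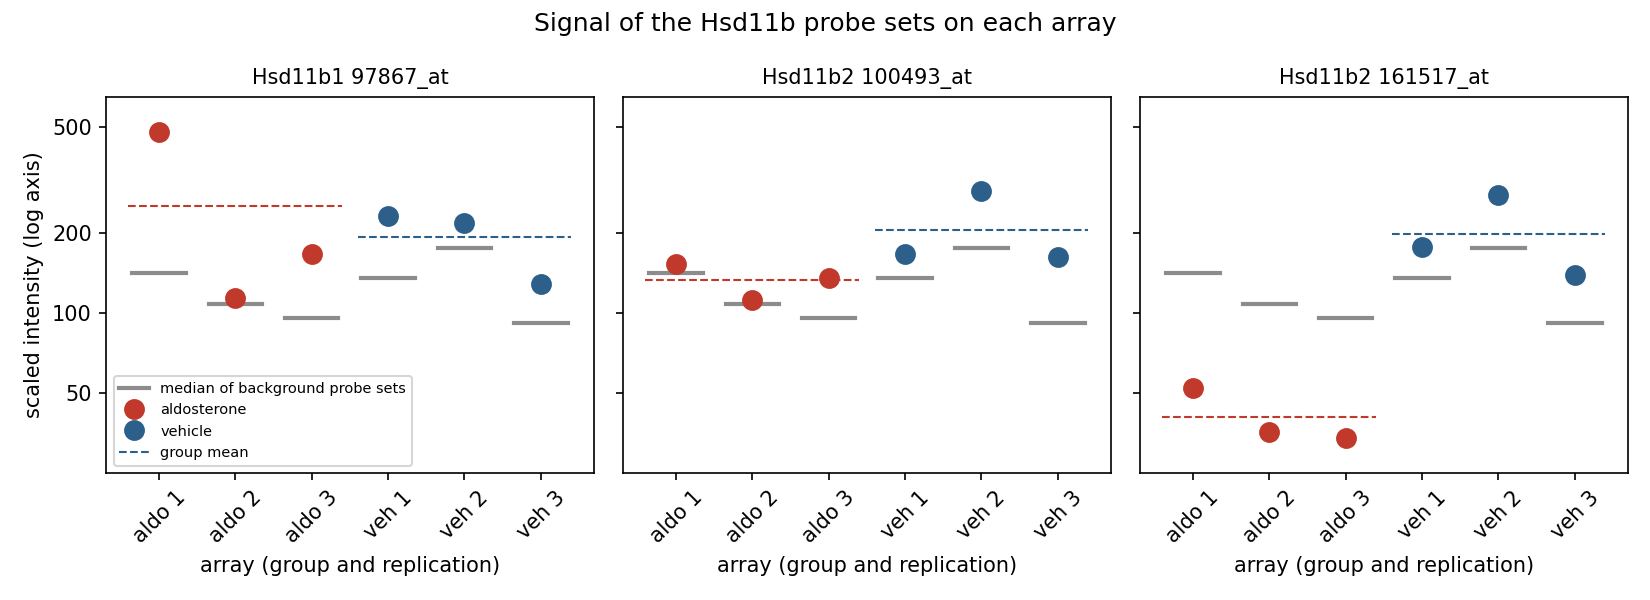
Scaled intensity (log axis) of each Hsd11b probe set on the 3 aldosterone arrays (red) and the 3 vehicle arrays (blue), with dashed group means and, in grey, the median of the 68 background probe sets on the same array. For 161517_at the aldosterone values of 33.8 to 52.3 lie below the grey bars and the vehicle values of 139 to 277 above them, while Hsd11b1 and 100493_at lie near or above the bars on all arrays.

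A lower reading after aldosterone was common among dim probe sets. Over all probe sets, 4.15% had groups that did not overlap with aldosterone lower, and 1.89% with aldosterone higher. Below the 40th percentile the shares were 6.98% and 1.87%. As a ratio to each array's background median, 1.68% of all probe sets were lower without overlap and 2.80% were higher, so the balance between the directions turned with the scaling. Lower readings in all 3 replications, as in both Hsd11b2 probe sets, occurred in 14.2% of all probe sets and in 18.3% of those below the 40th percentile, and higher readings in all 3 in 9.06% and 6.86%. Without the aldosterone array of replication 3, the shares without overlap were 8.95% lower and 6.09% higher. Fewer arrays separate more easily, so these shares are not to be set against those of 3 against 3 arrays. The median log2 difference was -0.03 over all probe sets and -0.14 below the 40th percentile.

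The 2 probe sets of Hsd11b2 gave differences of unequal size. The log2 ratio of 161517_at to 100493_at within an array was taken as a difference of log2(intensity + 53.0), which shrinks it for dim readings. It was -0.96, -0.89 and -1.12 on the aldosterone arrays, against 0.06, -0.04 and -0.16 on the vehicle arrays. It averaged -0.99 ± 0.115 with aldosterone and -0.04 ± 0.113 with vehicle (SD, n = 3 each), and the groups did not overlap. The change of -0.95 had p = 0.1 in the exact permutation test, the smallest this design allows, and 0.15 after adjustment over 3 such ratios. With values floored at each array's background median the change in the ratio was -0.16 (exact permutation test, p = 0.4). Their log2 values over the 6 arrays had a Pearson r of 0.873 and a Spearman rho of 0.943, as a description. The annotation credits the 2 probe sets to different source sequences. Which of them reads the transcript more faithfully was not tested.

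Hsd11b1 showed no common direction. Its probe set 97867_at had 476, 114 and 167 on the aldosterone arrays of replications 1, 2 and 3, against 231, 217 and 128 on the vehicle arrays. The groups overlapped, since the aldosterone arrays held both the highest and the lowest of the 6 values. The ratio of aldosterone to vehicle was 2.06, 0.525 and 1.30 in the 3 replications. The means were 252 ± 196 with aldosterone and 192 ± 56.0 with vehicle (SD, n = 3 each). The log2 difference was 0.16 (SE 0.483) (limma, adjusted p = 0.9996), and its 95% interval of -0.91 to 1.23 spans changes of about a doubling in either direction. The exact permutation test gave p = 0.9. The aldosterone array of replication 1 decided the sign. Without it the log2 difference was -0.33, and without the vehicle array of replication 3 it was -0.04. On that aldosterone array 97867_at was brighter than 39.7% of all probe sets and than 52 of the 68 background probe sets, its highest rank on any array.

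**Figure D3:**
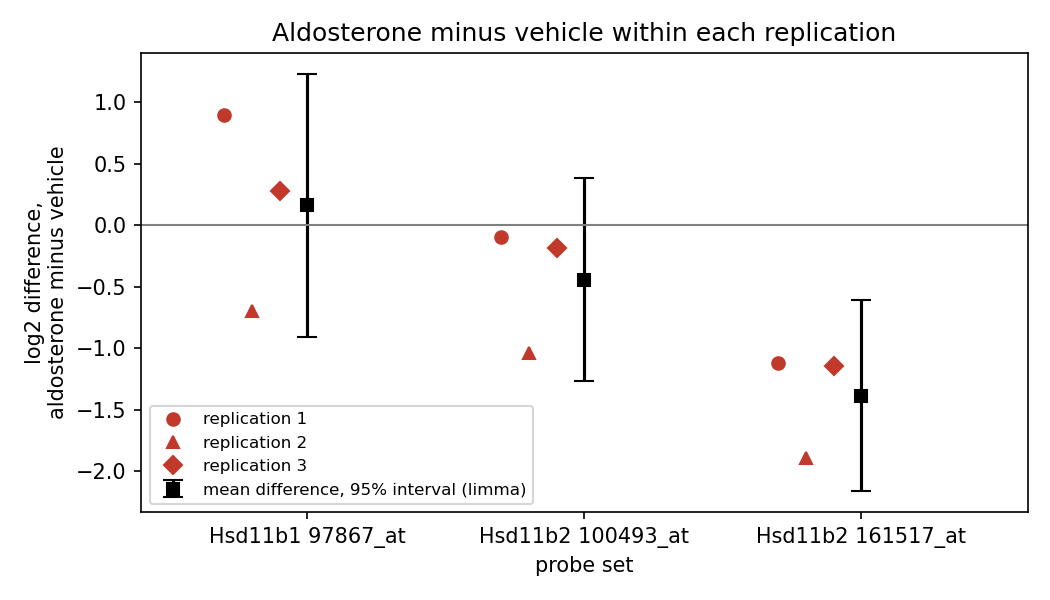
Log2 difference, aldosterone minus vehicle, of each Hsd11b probe set within replication 1, 2 and 3 (red symbols), with the mean difference and its 95% interval from limma (black). Differences are on the scale log2(intensity + 53.0). Hsd11b1 has replications on both sides of 0, 100493_at lies between -1.04 and -0.10, and 161517_at lies between -1.90 and -1.12.

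The log2 ratio of an Hsd11b2 probe set to the Hsd11b1 probe set was taken within each array, as a difference of log2(intensity + 53.0). Neither enzyme stood clear of background, so this is a ratio of readings and does not measure the balance between the enzymes. Only the change of the ratio between groups can be read. With 161517_at the ratio was -2.33, -0.91 and -1.34 on aldosterone arrays and -0.31, 0.29 and 0.08 on vehicle arrays, and the groups did not overlap. How often pairs of other probe sets separate in this way was not counted. The change was -1.55 (exact permutation test, two-sided, p = 0.1, adjusted p = 0.15). It combines the log2 difference of -1.39 for 161517_at with that of 0.16 for Hsd11b1, so it mainly repeats the lower reading of 161517_at. The size of the change depended on how readings below background were treated. The change was -0.90 (exact permutation test, p = 0.2) with values floored at each array's background median. With no pseudocount and a floor at the 5th percentile it was -2.41. With 100493_at the ratio was -1.37, -0.02 and -0.22 on aldosterone arrays and -0.37, 0.33 and 0.24 on vehicle arrays, and the groups overlapped. Within replications 1, 2 and 3 it was lower with aldosterone by differences of -0.99, -0.35 and -0.47. The change in the mean was -0.60 (exact permutation test that ignores the pairing, p = 0.3). The aldosterone array of replication 1 weighed most, and without it the change was -0.19 (exact permutation test, p = 0.6).

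Across all probe sets limma called 0 of 12422 at an adjusted p under 0.05 (0%), and 262 (2.11%) had an unadjusted p under 0.05, of which 170 (1.37%) were lower and 92 (0.741%) higher. Of the Hsd11b probe sets only 161517_at was among the 170. With the replication as a block 6 probe sets (0.0483%) were called, none of them an Hsd11b probe set. Neither enzyme passed the test of differences between replications. In limma's F test 597 probe sets (4.81%) did, and the adjusted p was 0.472 for Hsd11b1, 0.952 for 100493_at and 0.847 for 161517_at.

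Among the partners of these enzymes, H6pd was bright, at 11915 ± 2566 with aldosterone and 11110 ± 1108 with vehicle (SD, n = 3 each). Its log2 difference was 0.08 (SE 0.164). The glucocorticoid receptor gene Nr3c1, whose ligand both enzymes control, had 507 ± 100 with aldosterone and 540 ± 334 with vehicle, with a log2 difference of 0.08 (SE 0.458). Its direction was not resolved, as the linear mean was lower with aldosterone, the log2 mean was higher and the value was higher in 1 of 3 replications. Fkbp5, a co-chaperone of that receptor, had a log2 difference of -0.005. No value is given for the mineralocorticoid receptor gene Nr3c2, which was not among the probe sets with a single symbol here. Of 7 genes listed as receptors and partners of receptors or of these enzymes, H6pd included, 5 were measured and 0 passed the test.

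A list of enzymes and carriers linked to corticosteroid metabolism, which again included H6pd, held 19 genes. Of these 11 were measured, and only 3 of the 11 were above the 40th percentile. By limma 0 passed, 4 were higher and 7 lower by sign, and the median log2 difference was -0.12, against -0.03 over all probe sets and -0.14 over dim ones. The members with the smallest p were dim: the cytochrome P450 genes Cyp3a16 (21.0 ± 14.8 with aldosterone and 74.9 ± 55.9 with vehicle) and Cyp3a11 (23.7 ± 8.40 with aldosterone and 54.9 ± 17.5 with vehicle), and the drug efflux pump gene Abcb1a (28.8 ± 13.6 with aldosterone and 52.5 ± 20.0 with vehicle). Each of these means lay below the background medians. Their log2 differences of -0.72, -0.48 and -0.36 had the sign seen in Hsd11b2, but Cyp3a16 and Abcb1a were each higher in 1 of 3 replications. That sign was common, held by 64.4% of probe sets below the 40th percentile.

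Among other hydroxysteroid dehydrogenases, 16 of 22 listed genes were measured, 8 were above the 40th percentile, 0 passed, and 10 were higher and 6 lower by sign (median log2 difference 0.06). Hsd17b12, which acts in fatty acid elongation, had 4603 ± 646 with aldosterone and 3871 ± 280 with vehicle, a log2 difference of 0.24 (SE 0.151). Hsd17b1, an enzyme of oestrogen synthesis, was dim and had a log2 difference of 0.61 (SE 0.484). The bile acid synthesis enzyme gene Hsd3b7 had -0.28 (SE 0.228).

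Genes of steroid synthesis gave 6 measured of 11 listed, 0 passed, and 3 were higher and 3 lower by sign. The log2 differences were 0.37 for Cyp17a1, which makes androgen precursors, -0.33 for Star, which brings cholesterol into mitochondria, and -0.09 for the transcription factor Nr5a1. Of 10 genes listed as regulators of either enzyme, 8 were measured and 0 passed. The list holds C/EBP factors, which are known to act on the Hsd11b1 promoter. Cebpd had 6201 ± 325 with aldosterone and 3480 ± 1097 with vehicle (SD, n = 3 each), higher in 3 of 3 replications, a log2 difference of 0.87 (SE 0.217) (limma, adjusted p = 0.9996, and 0.0835 with the replicate block). Higher readings in all 3 replications occurred in 9.06% of all probe sets. Cebpb had 0.29 (SE 0.180), and the liver factor gene Hnf4a, dim here, had -0.43 (SE 0.327). Cebpa, also a C/EBP factor of the list, had 1193 ± 37.3 with aldosterone and 1509 ± 686 with vehicle. Its log2 difference was -0.21 (SE 0.331), and it was higher in 1 of 3 replications, so the C/EBP factors had no common direction.

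The cells' identity was checked against fixed markers, since Hsd11b2 is itself a gene of collecting duct principal cells. Of 10 kidney epithelial genes measured, 10 were above the 40th percentile of brightness that the Hsd11b probe sets did not reach, among them Krt8, Krt18, the E-cadherin gene Cdh1 and Pax8. Of 9 collecting duct markers measured, 3 were: Cdh16 (kidney cadherin), Hoxb7 and Hoxd8. The water channel gene Aqp2, at 334 ± 370 with aldosterone and 208 ± 80.1 with vehicle, and the vasopressin receptor gene Avpr2, at 296 ± 224 with aldosterone and 246 ± 161 with vehicle, were not. Hsd11b2 and these principal cell genes all fell under that level. Above it were 2 of 3 measured markers of intercalated cells, the other collecting duct cell type, among them the carbonic anhydrase gene Car2. So were 1 of 7 proximal tubule and loop, 0 of 6 endothelial, 3 of 7 fibroblast and 3 of 7 leukocyte markers. For comparison, 7453 of all 12422 probe sets and 14 of the 51 background genes lay above it. The count over all probe sets follows from where the cut was set. Listed genes, background genes included, were each read from the brightest probe set, which favours a place above the cut. The collecting duct count of 3 of 9 thus does not by itself set these cells apart. The RNA came from a cell line, and these counts do not show that other cell types were present. In such a bulk sample, fewer expressing cells and less RNA per cell cannot be told apart.

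Brighter genes with the most similar profile over the 6 arrays were listed as a description, among 6742 probe sets with a single symbol above the 40th percentile. For 161517_at these were Gcdh (Pearson r = 0.977, Spearman rho = 0.943), Tarbp2 (r = 0.964, rho = 0.943) and Tm2d1 (r = 0.958, rho = 0.943). All 3 had lower means with aldosterone, by log2 differences of -0.55, -0.26 and -0.79. They were chosen for likeness to 161517_at, which was itself lower with aldosterone, so this direction is no separate support. For 100493_at they were Tap2 (r = 0.978, rho = 0.886), Utp20 (r = 0.970, rho = 0.943) and Chek1 (r = 0.966, rho = 0.829). For Hsd11b1 they were Alkbh5 (r = 0.986, rho = 0.943), Ankzf1 (r = 0.984, rho = 1) and Polr2j (r = 0.982, rho = 1). An r of at least 0.9 was reached by 28 of the 6742 probe sets for 161517_at, 36 for 100493_at and 39 for Hsd11b1. An inverse r of that size was reached by 19, 61 and 85. How many unrelated profiles would reach it over 6 arrays was not tested. The points are 6 arrays that share a scaling, so these values describe likeness only. Hsd11b1 had an r of 0.251 (rho = 0.486) to 100493_at and of 0.0458 (rho = 0.371) to 161517_at.

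**Figure D4:**
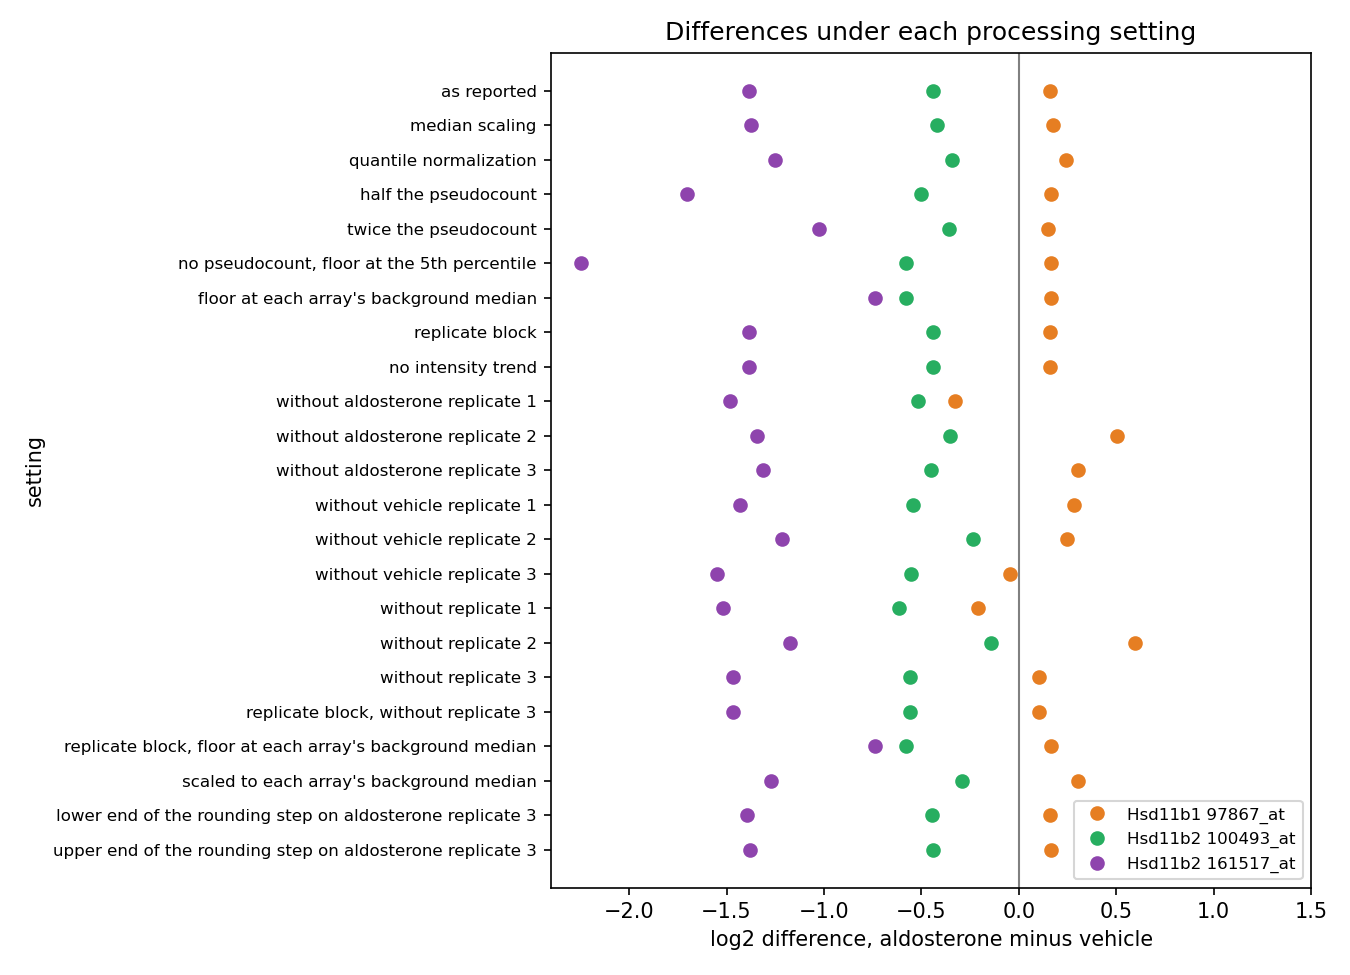
Log2 difference, aldosterone minus vehicle, of the 3 Hsd11b probe sets under each processing setting (one line per setting). Both Hsd11b2 probe sets stay below 0 throughout, from -2.25 to -0.74 for 161517_at and from -0.61 to -0.14 for 100493_at, while Hsd11b1 crosses 0 and runs from -0.33 to 0.60.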

How the data were processed

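The authors deposited 1 intensity per probe set and array on a linear scale, with software and scaling target not given in the sources used here. Arrays were scaled to the mean of their 2% trimmed means and converted to log2(intensity + 53.0), whose pseudocount was the 10th percentile of the scaled table. Symbols came from the array's annotation (10833 probe sets with 1 symbol, 396 with several, 1193 with none), and Entrez identifiers matched to RefSeq GRCm38.p6 for 10817 changed 0 of them. The comparison used limma 3.58.1 under R 4.3.3 (lmFit, then eBayes with trend, two-sided) on all 12422 probe sets with Benjamini-Hochberg adjustment. No brightness filter was used, because it removes all 3 Hsd11b probe sets. The code was tested on simulated data. The replication numbers paired the arrays: each replication is 1 experiment per the labels, and the correlation between its 2 arrays, as deviations from group means, was 0.166, 0.222 and 0.263. Named genes were the Hsd11b genes, the 3 of smallest p in each pathway list with H6pd, Nr3c1 and Nr3c2, and the 3 most similar profiles. Cebpa was added beside the other C/EBP factors. A listed gene was read from its brightest probe set. The members, lists and tests were chosen with earlier results of these data known.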

Additional observations from a re-analysis of the deposited data

How the results depend on the processing

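Both Hsd11b2 probe sets stayed lower with aldosterone, and neither passed the threshold, under all 22 alternatives run, which included rescaling, other pseudocounts and floors, the replicate block and leaving out arrays or replications. In many of these the sign could not turn. The replicate block and the fit without the intensity trend leave the log2 difference as it is. Groups that do not overlap cannot reverse under another pseudocount or floor, or when arrays or replications are left out. The constant sign is therefore no separate support. Log2 differences ran from -2.25 to -0.74 for 161517_at and from -0.61 to -0.14 for 100493_at, and leaving out arrays or replications gave -1.55 to -1.17 and -0.61 to -0.14. The adjusted p ran from 0.649 to 1 for 161517_at. Hsd11b1 kept a positive sign in 19 of 22 alternatives and turned to -0.33 without aldosterone replicate 1, -0.04 without vehicle replicate 3 and -0.21 without replicate 1 (range on leaving out, -0.33 to 0.60); fewer arrays entered those fits. The change in the log2 ratio to Hsd11b1 kept its sign in all 16 alternatives, from -2.41 to -0.90 with 161517_at and from -0.86 to -0.19 with 100493_at. The filter at the 40th percentile gave no value for the 3 probe sets. The replicate block changed no call of theirs. The count of probe sets called, 0, was 6 with the replicate block, 27 with the block and without replicate 3, and 24 with the block and a floor at each array's background median; the cause was not tested, and leaving out arrays or replications without the block gave 0. The count that differed between replications, 597, was 350 after quantile normalization, 263 after scaling to the background median, 49 with no pseudocount and a floor at the 5th percentile, 1362 with the background floor, 0 without the intensity trend, and 175 to 854 without single arrays (238 without aldosterone replicate 1, 175 without vehicle replicate 1). The blocked fits with a second change, the scaling to the background median and the recounts of groups that do not overlap were chosen after seeing the data. Signal near background limits all 3 probe sets, and 3 arrays a group limit the precision.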
